A study of Homo sapiens with 16 samples.

Results

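Of 18227 genes measured in A549 and H2023 lung cancer cells, 7 were followed as mucins and goblet cell secretory genes: the membrane mucins MUC1 and MUC16, the gel-forming mucins MUC5AC and MUC5B, the mucin-folding protein AGR2, the trefoil peptide TFF1 and the transcription factor SPDEF. They were picked by symbol from a list chosen with earlier results of these data known, and all 7 were present in every deposited table. Both are established lines grown from non-small cell lung cancers of people, and in each a knockout of ZC3H12A, which encodes the mRNA-cleaving enzyme Regnase-1, was set beside wild-type cells. Cells were harvested after 3 days in normal culture (named Parent in the titles) or after 7 days in a culture enriched for stem cells (oncosphere culture), so that culture type and time change together. The 8 groups were therefore A549 or H2023, wild type or labelled knockout, at 3 days of normal or 7 days of oncosphere culture, with 2 libraries in each of the 8. By its title every knockout library of a line comes from 1 clone (g2-3 in A549, g2-1 in H2023), so a difference from wild type also holds whatever else sets that clone apart.

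Goblet cells of the airway make and release mucus. Membrane mucins stay anchored in the cell surface, whereas gel-forming mucins are long, heavily glycosylated polymers that are folded in the endoplasmic reticulum, packed into granules and secreted. AGR2 is a disulfide isomerase of the endoplasmic reticulum that helps gel-forming mucins fold, TFF1 is a small peptide secreted with mucus, and SPDEF is an ETS-family transcription factor that drives goblet cell differentiation in the airway. Lung adenocarcinomas often express these genes, and mucinous forms of the tumour produce mucus in excess.

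Promoter sequence was matched for 4 of the 7 genes (MUC1, MUC16, AGR2 and SPDEF) in RefSeq's GRCh38.p14 annotation, as windows of 250 bases before to 50 bases after a gene's start. The windows of SPDEF and AGR2 are printed because these are the 2 genes whose knockout difference passed a test between the lines in both cultures, and that of MUC1 because it is the 1 gene that passed in neither. All 3 lie on the minus strand, SPDEF at chr6:34556280-34556579, AGR2 at chr7:16804950-16805249 and MUC1 at chr1:155192866-155193165. Each is written 5′ to 3′ in the direction of the gene, and capitals mark a match to a searched motif.
SPDEF: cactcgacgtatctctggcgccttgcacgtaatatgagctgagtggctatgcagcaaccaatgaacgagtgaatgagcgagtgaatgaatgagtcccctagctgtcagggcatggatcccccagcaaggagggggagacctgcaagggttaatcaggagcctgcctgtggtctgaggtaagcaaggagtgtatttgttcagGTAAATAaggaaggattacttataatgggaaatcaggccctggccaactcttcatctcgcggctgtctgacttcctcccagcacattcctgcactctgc
AGR2: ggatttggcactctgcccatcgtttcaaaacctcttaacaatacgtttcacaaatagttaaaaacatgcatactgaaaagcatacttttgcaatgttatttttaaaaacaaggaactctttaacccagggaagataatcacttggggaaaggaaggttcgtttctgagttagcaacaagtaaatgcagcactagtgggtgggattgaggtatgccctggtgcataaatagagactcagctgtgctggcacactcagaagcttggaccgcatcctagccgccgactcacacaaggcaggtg
MUC1: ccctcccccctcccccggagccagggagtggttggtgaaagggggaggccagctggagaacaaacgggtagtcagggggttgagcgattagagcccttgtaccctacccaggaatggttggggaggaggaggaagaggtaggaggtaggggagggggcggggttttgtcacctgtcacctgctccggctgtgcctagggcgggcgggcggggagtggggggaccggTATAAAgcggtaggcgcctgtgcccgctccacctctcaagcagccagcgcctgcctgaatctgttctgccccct
Both strands were searched for letters that forkhead, ETS, AP-1, E-box, STAT and unfolded protein response factors are known to read, and for the TATA box. The second of the forkhead forms, TATTTAC, was added with these sequences in view, as was the TATA box. The SPDEF window holds TATTTAC on the reverse strand, printed as GTAAATA, at position -49 from the start, a match found in 2.67% of 35116 promoters of the same length. The MUC1 window holds TATAAA at position -24, which 11.5% of the promoters do, and none of the letters searched occurred in the AGR2 window. CCGGAT, the letters that SPDEF prefers, was in 7.12% of promoters and in none of these windows. Of the other letters, the first of the forkhead forms, TGTTTAC, was in 3.42% of promoters. The core that most ETS factors read, CCGGAA, was in 17.2%. AP-1 was searched as TGANTCA, where N is any base, and was in 7.71%. A window of MUC16, not printed, holds it as TGAATCA at position -136. The E-box was searched as CACGTG and was in 7.26%. The core of the unfolded protein response element, TGACGTG, overlaps the E-box in some of its letters and was in 1.97%. STAT factors were searched as TTCNNNGAA, which was in 7.66%. A match or its lack describes the letters in the window and says nothing of which factor is bound.

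Expression was measured by stranded mRNA sequencing and deposited as TPM, a transcript abundance that scales reads to gene length and library total. ZC3H12A itself was lower in the libraries labelled knockout in A549 normal culture only (16.9 and 19.9 TPM against 30.7 and 34.9 in wild type). In the other 3 settings it was higher in both libraries labelled knockout than in both wild-type libraries (55.6 to 60.2 against 48.5 to 49.2 TPM in A549 oncosphere culture, 41.5 and 41.5 against 26.8 and 29.9 in H2023 normal culture, and 69.2 to 94.6 against 26.4 to 32.5 in H2023 oncosphere culture), so its RNA level goes against the label there, and "knockout" below means only the label. Total TPM was 991838 to 998125 per library, 13824 to 14508 genes reached 1 TPM, and replicates correlated at 0.983 to 0.992 across genes. TPM does not show how deeply each library was sequenced, but the authors' deposited tables give a mean normalized count per gene over the 4 libraries of a table. For MUC16 that mean was 12.2 in A549 normal, 157 in A549 oncosphere, 112 in H2023 normal and 185 in H2023 oncosphere culture. For TFF1 it was 4.30, 279.7, 12.7 and 10.6 in the same order, and each of the other 5 genes had 146 or more in every table. The labels do not say that replicates are separate cultures, so p-values measure the spread between libraries, which may be technical. In RNA from bulk cells, fewer cells that express a gene and less RNA per expressing cell cannot be told apart.

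MUC1, a membrane mucin of the luminal surface of most epithelia (GENCODE v29, GRCh38, chr1:155185824-155192916, minus strand), was measured at 5 TPM or more in all 16 libraries. In A549 normal culture its wild-type level was 5 and 7.51 TPM, and the knockout libraries held 8.92 and 15.25 TPM. In A549 oncosphere culture it was 55.2 and 38.1 TPM in wild type and 19.4 and 22.3 TPM in knockout. The A549 knockout libraries were thus the higher pair at 3 days and the lower pair at 7 days, with no overlap in either culture. H2023 cells in normal culture held 28.5 and 26.0 TPM (wild type) or 17.6 and 13.7 TPM (knockout), and those in oncosphere culture 45.9 and 111 TPM or 25.4 and 34.3 TPM. Both H2023 knockout pairs lay below wild type, and the wild-type oncosphere libraries differed from each other 2.42-fold. Group means ran from 78.7 TPM in H2023 oncosphere wild type to 6.255 TPM in A549 normal wild type, and neighbours in that order overlapped for the first pair (H2023 and A549 oncosphere wild type), for H2023 oncosphere knockout and H2023 normal wild type, and for both normal-culture knockout groups. The gene model shares bases with another protein-coding model on its strand (AL713999.1), and how reads were divided between them is not given in the sources used here.

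MUC16, the large membrane mucin shed as the tumour antigen CA125 (chr19:8848844-8981342, minus strand), was low throughout and passed 1 TPM in 4 libraries. Its level was 1.32 and 1.26 TPM in A549 oncosphere wild type and 1.73 and 1.68 TPM in H2023 oncosphere knockout, which were those 4 libraries. A549 normal culture held 0.03 and 0.07 TPM in wild type and 0.04 and 0.11 TPM in knockout, and A549 oncosphere knockout held 0.26 TPM in each library. The H2023 pairs spread widely: 0.19 and 0.81 TPM in normal wild type, 0.72 and 0.32 TPM in normal knockout and 0.15 and 0.89 TPM in oncosphere wild type. These 3 H2023 groups overlapped one another, and replicates within them differed up to 5.93-fold.

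MUC5AC, the gel-forming mucin typical of surface goblet cells (chr11:1157953-1201138, plus strand), reached its highest level in A549 oncosphere wild type, at 249 and 378 TPM. In A549 oncosphere knockout it was 15.7 and 5.33 TPM, and in A549 normal culture 4.97 and 6.54 TPM in wild type and 1.80 and 2.17 TPM in knockout. In each culture both A549 knockout libraries lay below both wild-type libraries. In H2023 normal culture the wild-type libraries were at 19.1 and 4.20 TPM and the knockout libraries at 1.73 and 1.58 TPM. In H2023 oncosphere culture they were at 52.3 and 10.9 TPM in wild type and 11.4 and 8.96 TPM in knockout, which overlap. The H2023 wild-type replicates differed 4.54-fold in normal and 4.80-fold in oncosphere culture, wider than for any other member in those 2 groups except MUC16 in oncosphere culture. Mean levels of the second to the fifth group in order (H2023 oncosphere wild type, H2023 normal wild type, A549 oncosphere knockout and H2023 oncosphere knockout) overlapped their neighbours.

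MUC5B, the gel-forming mucin of submucosal glands and distal airways (chr11:1223066-1262172, plus strand), was among the most abundant mRNAs of A549 in oncosphere culture. Wild-type cells held 91.0 and 224 TPM in normal culture and 2059 and 2217 TPM in oncosphere culture, where its mean ranked 51st of all 18227 genes (859th in normal culture). The libraries labelled knockout held 8.58 and 17.9 TPM in normal and 578 and 443 TPM in oncosphere culture. No A549 group overlapped another. In H2023 the level was 5.86 and 7.76 TPM in normal wild type and 0.16 and 0.14 TPM in normal knockout, the lowest of the 8 groups. In H2023 oncosphere culture it was 100 and 49.6 TPM in wild type and 97.6 and 56.6 TPM in knockout. The H2023 genotypes were thus separate at 3 days and overlapped at 7 days. MUC5B overlaps an antisense gene (MUC5B-AS1) and a miRNA gene (MIR6744), and since strand use in counting is not given in the sources used here, their reads cannot be told apart from those of MUC5B.

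AGR2 (chr7:16791811-16833433, minus strand) had the highest level of the 7 genes in 7 of 8 groups, and MUC5B exceeded it in A549 oncosphere knockout. In A549 its level was 249 and 295 TPM in normal wild type, 10.7 and 24.1 TPM in normal knockout, 2782 and 3197 TPM in oncosphere wild type and 518 and 312 TPM in oncosphere knockout. These 4 groups did not overlap. In H2023 it was 1322 and 1028 TPM in normal wild type, 548 and 548 TPM in normal knockout, 2862 and 2305 TPM in oncosphere wild type and 1742 and 2375 TPM in oncosphere knockout. The H2023 groups overlapped only between genotypes in oncosphere culture. Mean AGR2 ranked 28th of all genes in A549 and 27th in H2023 oncosphere wild type.

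TFF1 (chr21:42362282-42366594, minus strand) was present at an appreciable level in 1 group only: A549 oncosphere wild type held 136 and 105 TPM. The other A549 groups held 0.80 and 1.10 TPM (normal wild type), 0.37 and 0.58 TPM (normal knockout) and 0.41 and 0.63 TPM (oncosphere knockout). All H2023 libraries lay between 1.39 and 3.20 TPM, and their 4 groups overlapped in order of mean.

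SPDEF (chr6:34537802-34556333, minus strand) was at 14.9 and 17.3 TPM in A549 normal wild type and 76.4 and 75.1 TPM in A549 oncosphere wild type. The A549 libraries labelled knockout held 0.29 and 0.51 TPM in normal and 8.59 and 2.11 TPM in oncosphere culture, below wild type in both. In H2023 it was 6.69 and 3.70 TPM in normal wild type, 6.04 and 5.29 TPM in normal knockout, 19.7 and 7.18 TPM in oncosphere wild type and 28.5 and 18.2 TPM in oncosphere knockout. H2023 wild type and knockout overlapped in each culture.

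**Figure D1:**
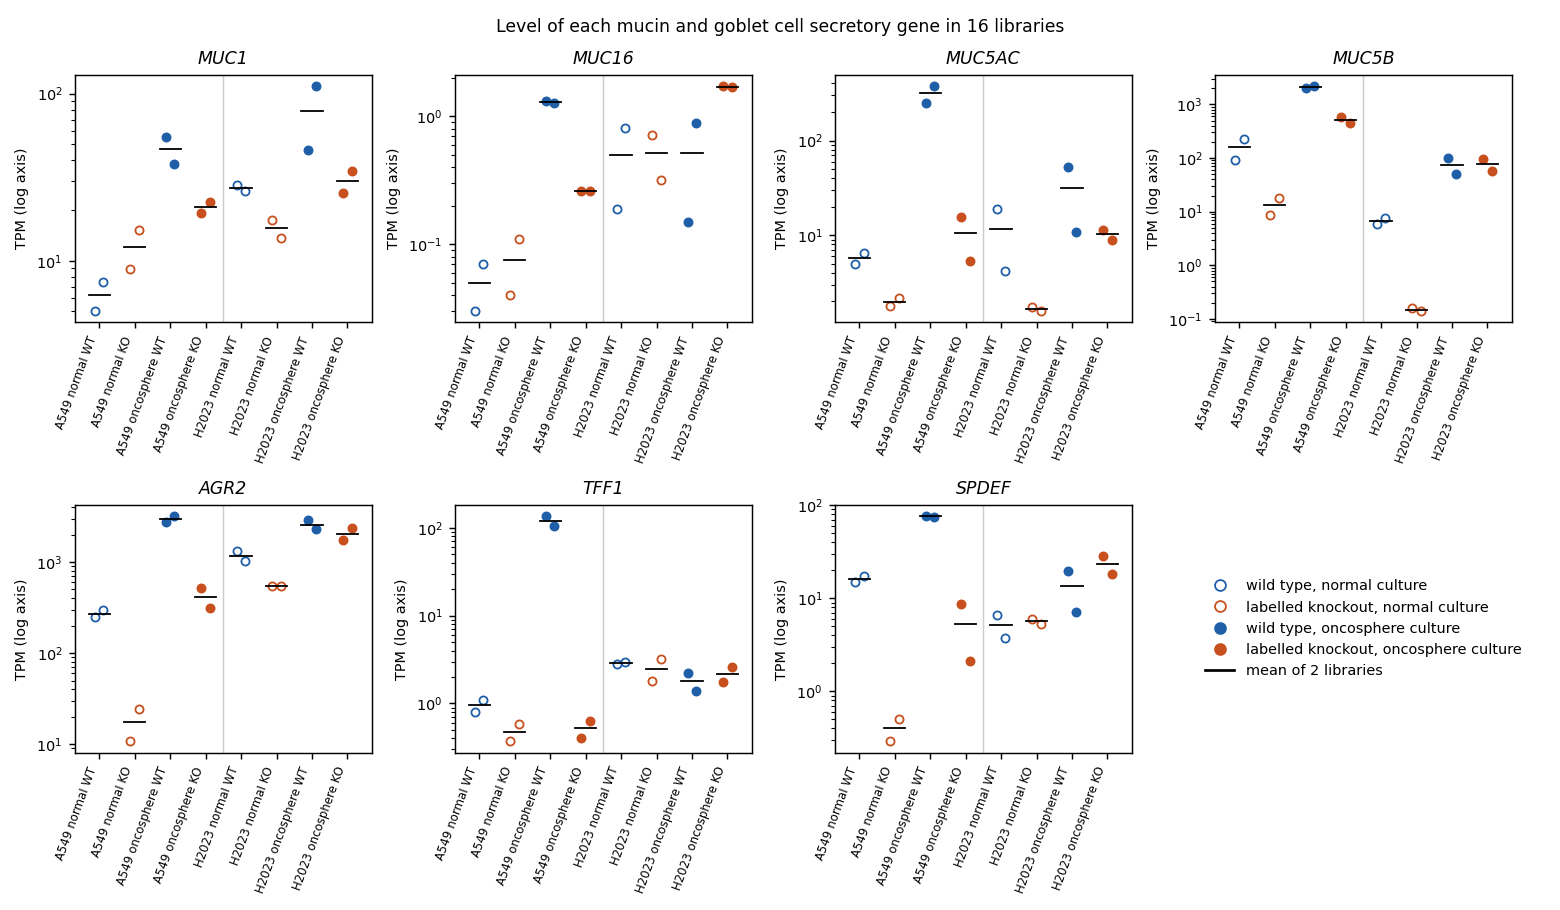
TPM of each of the 7 genes (1 panel per gene, log axis) in the 16 libraries, with points for libraries and a line for the mean of the 2 libraries in a group; open points are normal culture and filled points oncosphere culture. A549 oncosphere wild type is the highest group for MUC5AC, MUC5B, AGR2, TFF1 and SPDEF, and TFF1 exceeds 100 TPM in that group and stays at 3.20 TPM or less in all others.

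Summed over the 7 genes, the members made up 0.537% and 0.602% of all TPM in A549 oncosphere wild type and 0.0031% and 0.0061% in A549 normal knockout, the highest and the lowest of the 8 groups. A549 normal wild type lay at 0.0366% and 0.0553% and A549 oncosphere knockout at 0.114% and 0.0787%. In H2023 the sum was 0.139% and 0.108% in normal wild type, 0.058% and 0.0576% in normal knockout, 0.310% and 0.250% in oncosphere wild type and 0.192% and 0.252% in oncosphere knockout. AGR2 and MUC5B carried most of that sum in A549 oncosphere wild type, and AGR2 alone did in H2023.

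Whether the knockout label was linked to these genes was tested with limma on log2(TPM + 1) over all genes, with p-values adjusted by the Benjamini-Hochberg method and called under 0.05. Fold changes below are on that scale, which understates the change of genes with low TPM, and are given with their standard error (SE).

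In A549 normal culture, AGR2, SPDEF and MUC5B fell in the libraries labelled knockout, and the other 4 genes did not pass the test. Mean AGR2 was 15.6-fold lower (log2 fold change -3.99, SE 0.32, adjusted p = 1.37e-05). Mean SPDEF was 40.2-fold lower in TPM (log2 -3.61, SE 0.49, adjusted p = 4.48e-04) and mean MUC5B 11.9-fold lower (log2 -3.42, SE 0.44, adjusted p = 3.30e-04). These 3 of 7 stand beside 17.7% of all genes that passed in this comparison, and the members' median log2 fold change was -1.17 against -0.03 over all genes. MUC5AC gave -1.17 (SE 0.69, adjusted p = 0.268), TFF1 -0.40 (adjusted p = 0.284), MUC16 0.03 (adjusted p = 0.944) and MUC1 0.83 (SE 0.36, adjusted p = 0.137). The authors' deposited table, which rests on counts, passed 5 of 7, where 22.1% of the 16460 genes with an adjusted p passed. They were the same 3 as lower, MUC5AC as lower (log2 -1.48, adjusted p = 4.18e-12) and MUC1 as higher (log2 0.97, adjusted p = 0.0349). That table gives no adjusted p for TFF1. The calls of AGR2, SPDEF and MUC5B held with any of the 4 libraries left out, and MUC5AC passed in a fit of these 4 libraries alone (adjusted p = 0.0347).

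In A549 oncosphere culture all 7 genes fell in the libraries labelled knockout, where 20.7% of all genes passed in either direction. TFF1, the secreted peptide, fell furthest: its mean was 231-fold lower in TPM (log2 -6.31, SE 0.24, adjusted p = 5.76e-08). The gel-forming mucin MUC5AC was 29.9-fold lower (log2 -4.91, SE 0.69, adjusted p = 3.49e-04) and MUC5B 4.19-fold lower (log2 -2.08, SE 0.44, adjusted p = 0.00524). SPDEF was 14.2-fold lower (log2 -3.81, SE 0.49, adjusted p = 1.91e-04) and AGR2 7.21-fold lower (log2 -2.89, SE 0.32, adjusted p = 6.14e-05). Both membrane mucins passed with the highest adjusted p of the 7, MUC1 at -1.10 (2.23-fold, SE 0.36, adjusted p = 0.0492) and MUC16 at -0.86 (4.96-fold, SE 0.23, adjusted p = 0.0192). Neither held when any 1 of the 4 libraries was left out (adjusted p 0.0603 to 0.269 for MUC1 and 0.0641 to 0.089 for MUC16) or at a pseudocount of 0.1 (0.0509 and 0.0504), and MUC5B was lost at 0.0503 without the second knockout library. The members' median was -2.89 against 0.03 over all genes. The authors' deposited table also passed all 7 as lower, beside 20.7% of its genes that have an adjusted p. TFF1 was at -7.39 and MUC16 at -3.09 in it.

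In H2023 normal culture only MUC5B passed, 1 of 7 beside 3.0% of all genes: its mean was 45.4-fold lower in the libraries labelled knockout (log2 -2.75, SE 0.44, adjusted p = 0.00617). That call was lost in a fit of these 4 libraries alone (adjusted p = 0.102) and without either knockout library or the second wild-type library (0.0548 to 0.0736). MUC5AC gave -1.95 (SE 0.69, adjusted p = 0.159), AGR2 -1.09 (SE 0.32, adjusted p = 0.0956) and MUC1 -0.77 (SE 0.36, adjusted p = 0.300), each with both knockout libraries below both wild-type libraries. SPDEF (0.15), TFF1 (-0.18) and MUC16 (0.04) overlapped between genotypes. The members' median was -0.77 against 0.01 over all genes. The authors' deposited table passed 4 of 7 as lower, beside 10.8% of its 15400 genes that have an adjusted p. These were MUC5B at -4.91, MUC5AC at -2.82, AGR2 at -1.20 and MUC1 at -0.85, the last with an adjusted p of 4.87e-04. For TFF1 that table gives no adjusted p here either.

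In H2023 oncosphere culture 1 of 7 genes passed, beside 5.56% of all genes, and in the opposite direction: MUC16 was higher in the libraries labelled knockout (log2 0.88, SE 0.23, adjusted p = 0.0466). That difference lay between 0.15 to 0.89 and 1.68 to 1.73 TPM, and it missed the threshold in 6 of 7 other settings and without either knockout library or the first wild-type library (0.147 to 0.242). MUC1 gave -1.25 (SE 0.36, adjusted p = 0.0656) with no overlap between genotypes, and it passed without the first wild-type library (log2 -1.88, adjusted p = 0.012) and in the authors' deposited table (log2 -1.16, adjusted p = 0.0112). MUC1 was the 1 member that passed in that table, where 5.07% of genes with an adjusted p did. With the replicate number as a block in limma, MUC1 passed (adjusted p = 0.0186) and MUC16 did not (0.071). The other 5 genes overlapped between genotypes, at -1.18 for MUC5AC, -0.34 for AGR2, 0.08 for MUC5B, 0.19 for TFF1 and 0.87 for SPDEF. The median over the members was 0.08, against 0.06 over all genes.

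**Figure D2:**
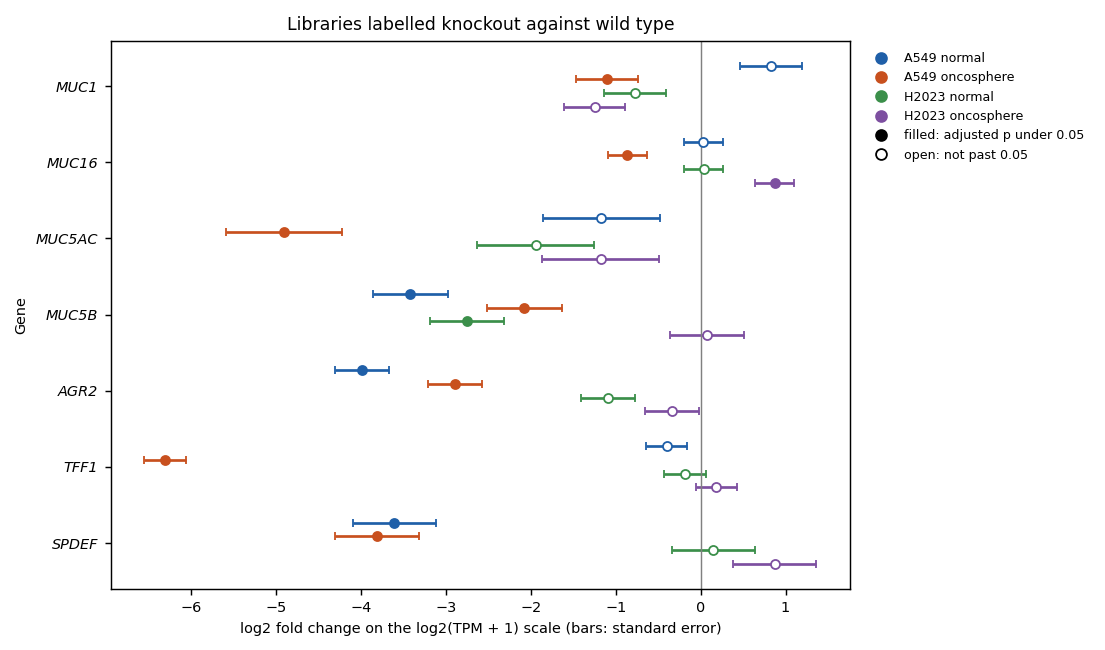
Log2 fold change of libraries labelled knockout over wild type, on the log2(TPM + 1) scale with its standard error, for each gene in the 4 settings of line and culture (n = 2 libraries per group); filled points passed an adjusted p of 0.05 in limma. All 7 points of A549 oncosphere culture are filled and below 0, from -0.86 for MUC16 to -6.31 for TFF1, and the H2023 points are filled only for MUC5B in normal culture and MUC16 in oncosphere culture.

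Whether the knockout difference itself differed between cultures was tested as an interaction. In A549 it was lower in oncosphere than in normal culture for TFF1 (difference of log2 fold changes -5.91, SE 0.34, adjusted p = 1.27e-05), MUC5AC (-3.73, SE 0.97, adjusted p = 0.0325) and MUC1 (-1.93, SE 0.51, adjusted p = 0.0348). These are 3 of 7 members beside 9.71% of all genes. TFF1 was at 1.10 TPM or less in every A549 normal library, where this scale could show little of a fall. For MUC5AC the test was lost without any one of 7 of the 8 libraries, and for MUC1 without any one of 5 of the 8, with adjusted p up to 0.124 and 0.135. MUC5AC was also lost at a pseudocount of 0.1 (adjusted p = 0.0547). SPDEF (-0.20), AGR2 (1.10), MUC5B (1.34) and MUC16 (-0.90) did not pass, although AGR2 did without the second normal knockout library (1.65, adjusted p = 0.0345) and MUC16 in a fit of the 8 libraries alone (adjusted p = 0.0242). In H2023 none of the 7 passed with limma, beside 0.00549% of all genes, which is 1 gene, while 1270 genes had an unadjusted p under 0.05. The H2023 member with the largest interaction was MUC5B (2.83, SE 0.62, unadjusted p = 6.55e-04, adjusted p = 0.271), for which subtracting the 2 log2 fold changes of the authors' deposited tables gave 4.73 (adjusted p = 1.75e-06).

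The knockout difference in H2023 minus that in A549 was tested next, and each gene that passed was above 0. In normal culture 2 of 7 genes passed that test, beside 12.1% of all genes: SPDEF (3.76, SE 0.69, adjusted p = 0.00506) and AGR2 (2.90, SE 0.45, adjusted p = 0.00198). MUC1 gave -1.60 (SE 0.51, adjusted p = 0.0619), and it passed in a fit of the 8 normal-culture libraries alone (adjusted p = 0.0336) and by the authors' deposited fold changes (-1.82, adjusted p = 1.85e-04). In oncosphere culture 6 of 7 passed, beside 16.3% of all genes: TFF1 at 6.49 (SE 0.34, adjusted p = 2.15e-06), SPDEF at 4.68 (SE 0.69, adjusted p = 8.61e-04), MUC5AC at 3.73 (SE 0.97, adjusted p = 0.0215), AGR2 at 2.55 (SE 0.45, adjusted p = 0.00252), MUC5B at 2.15 (SE 0.62, adjusted p = 0.0338) and MUC16 at 1.74 (SE 0.33, adjusted p = 0.00369). MUC1 gave -0.15 (adjusted p = 0.887). TFF1 lay at 1.39 to 3.20 TPM in all H2023 libraries, where this scale could show little of a fall. The MUC5AC call was lost without any one of 4 of the 8 libraries (adjusted p up to 0.0928), in a fit of the 8 oncosphere libraries (0.0583) and by the authors' deposited fold changes (0.0604), and the MUC5B call without any one of 6 of the 8 (up to 0.115). Each line is represented by 1 clone, so line and clone cannot be told apart here.

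Culture was compared within each line and genotype. These comparisons share libraries with those above: a high value in A549 oncosphere wild type enters both the difference between cultures and the difference between genotypes. In A549 wild type all 7 genes were higher in oncosphere than in normal culture, beside 41.5% of all genes that passed in either direction. TFF1 rose 126-fold in mean TPM (log2 5.95, SE 0.24, adjusted p = 8.31e-08), and the gel-forming mucins rose too, MUC5AC (54.5-fold, log2 5.52, SE 0.69, adjusted p = 5.62e-05) and MUC5B (13.6-fold, log2 3.89, SE 0.44, adjusted p = 2.70e-05). AGR2 rose 11.0-fold (log2 3.45, SE 0.32, adjusted p = 5.50e-06), MUC1 7.46-fold (log2 2.71, SE 0.36, adjusted p = 9.35e-05) and SPDEF 4.70-fold (log2 2.17, SE 0.49, adjusted p = 0.00364). MUC16 rose from at most 0.07 TPM to at least 1.26 TPM (25.8-fold in mean TPM, log2 1.13, SE 0.23, adjusted p = 0.00197). All 7 calls held with each of the 4 libraries left out and under the 6 other settings. The members' median was 3.45 against -0.01 over all genes.

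In the A549 libraries labelled knockout, 3 of 7 genes rose with oncosphere culture, beside 22.4% of all genes. MUC5B rose 38.6-fold (log2 5.24, SE 0.44, adjusted p = 1.19e-05) and AGR2 23.8-fold (log2 4.55, SE 0.32, adjusted p = 3.88e-06), and both stayed below the oncosphere wild type. SPDEF rose from at most 0.51 TPM to at least 2.11 TPM (log2 1.97, SE 0.49, adjusted p = 0.0124), a call lost without the first normal or the first oncosphere library (adjusted p = 0.0749 and 0.133). TFF1 gave 0.04 (SE 0.24, adjusted p = 0.931) with overlapping libraries, in contrast to the wild type, where the interaction reported above was -5.91. MUC5AC gave 1.79 (SE 0.69, adjusted p = 0.0851, or 0.018 in a fit of the 8 A549 libraries and 0.0052 with the replicate number as a block), MUC1 0.78 (adjusted p = 0.150) and MUC16 0.23 (adjusted p = 0.536), each without overlap between cultures. Medians were 1.79 over the members and -0.01 over all genes.

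In H2023 wild type 3 of 7 genes rose with oncosphere culture, beside 27.4% of all genes. MUC5B rose 11.0-fold (log2 3.21, SE 0.44, adjusted p = 3.43e-04), MUC1 2.88-fold (log2 1.36, SE 0.36, adjusted p = 0.0152) and AGR2 2.20-fold (log2 1.14, SE 0.32, adjusted p = 0.0193). Only the MUC5B call held with each library left out. MUC1 was lost without either normal library or the second oncosphere library (adjusted p up to 0.145) or in a fit of the 8 H2023 libraries (0.0538), and AGR2 without the second normal or the first oncosphere library (up to 0.117). SPDEF gave 1.11 (adjusted p = 0.114) and passed without the second oncosphere library (1.78, adjusted p = 0.0336). MUC5AC gave 1.30 (adjusted p = 0.187) and passed without the first normal or the second oncosphere library (2.28 and 2.38, adjusted p = 0.0489 and 0.0294) and with the replicate number as a block (adjusted p = 0.0173). The other 2 genes gave less, MUC16 0.01 (adjusted p = 0.994) and TFF1 -0.49 (adjusted p = 0.163). The median log2 difference of all genes reaching 1 TPM was itself -0.22 in this comparison. Relative to it MUC5B stood at 3.42, MUC1 at 1.58 and AGR2 at 1.36, and the same 3 passed. Over all genes, 943 were higher and 4043 lower, or 1762 and 1881 after centring.

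In the H2023 libraries labelled knockout 5 of 7 genes rose with oncosphere culture, beside 32.5% of all genes. MUC5B rose 514-fold in mean TPM, from at most 0.16 TPM to at least 56.6 TPM (log2 6.03, SE 0.44, adjusted p = 3.56e-06). AGR2 rose 3.76-fold (log2 1.89, SE 0.32, adjusted p = 7.70e-04). SPDEF (4.12-fold, log2 1.84, SE 0.49, adjusted p = 0.0128), MUC5AC (6.15-fold, log2 2.07, SE 0.69, adjusted p = 0.0367) and MUC16 (3.28-fold, log2 0.84, SE 0.23, adjusted p = 0.0144) passed with all libraries. MUC5AC was lost without any of the 4 (adjusted p 0.0923 to 0.137) or in a fit of the 8 H2023 libraries (0.116), SPDEF without either normal or the first oncosphere library (up to 0.0873) and MUC16 without the second normal or either oncosphere library (up to 0.118), at a pseudocount of 0.1 (0.0748) and in a fit of the 8 H2023 libraries (0.0819). MUC1 gave 0.89 (adjusted p = 0.0823) and TFF1 -0.12 (adjusted p = 0.768). The median of genes reaching 1 TPM was -0.15, and relative to it MUC1 stood at 1.03 and passed (adjusted p = 0.0497), TFF1 turned to 0.03, and the other 5 passed as before. Over all genes, 1779 were higher and 4146 lower, or 2537 and 2753 after centring.

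**Figure D3:**
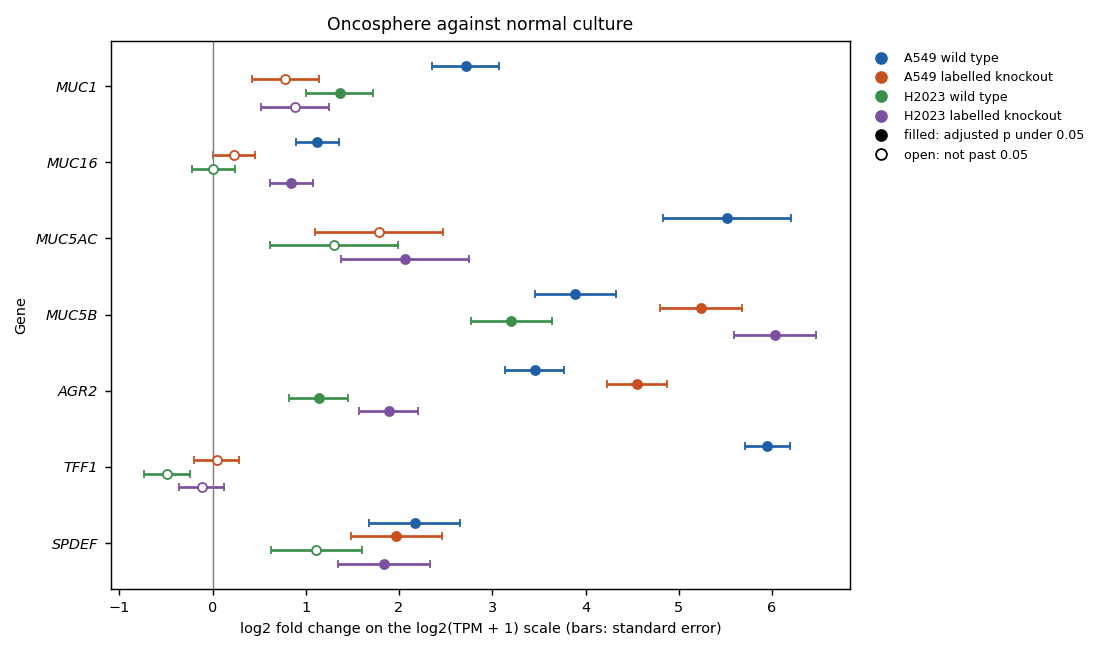
Log2 fold change of oncosphere over normal culture, on the log2(TPM + 1) scale with its standard error, for each gene in wild-type and knockout-labelled libraries of both lines (n = 2 libraries per group); filled points passed an adjusted p of 0.05 in limma. MUC5B and AGR2 are filled and above 0 in all 4 settings, and TFF1 is at 5.95 in A549 wild type and between -0.49 and 0.04 in the other 3.

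The wild-type lines differed in which of these genes they held. In normal culture 5 of 7 passed, beside 41.5% of all genes: AGR2 (4.32-fold, log2 2.10, SE 0.32, adjusted p = 2.57e-04), MUC1 (4.36-fold, log2 1.98, SE 0.36, adjusted p = 9.75e-04) and TFF1 (3.05-fold, log2 1.00, SE 0.24, adjusted p = 0.00591) were higher in H2023. MUC5B was 23.1-fold lower (log2 -4.21, SE 0.44, adjusted p = 1.83e-05) and SPDEF 3.10-fold lower (log2 -1.50, SE 0.49, adjusted p = 0.0269), the latter lost without either A549 library or the second H2023 library (adjusted p up to 0.168). MUC16 gave 0.48 (adjusted p = 0.113), which passed without the first H2023 library (0.79, adjusted p = 0.0321) and at a pseudocount of 0.1 (1.79, adjusted p = 0.0412), and MUC5AC 0.61 (adjusted p = 0.512). The median of genes reaching 1 TPM was 0.15 here, and the same 5 passed relative to it. In oncosphere culture 5 of 7 were lower in H2023, beside 47.8% of all genes: TFF1 66.4-fold (log2 -5.43, SE 0.24, adjusted p = 2.02e-08), MUC5B 28.6-fold (log2 -4.90, SE 0.44, adjusted p = 4.63e-06), MUC5AC 9.93-fold (log2 -3.61, SE 0.69, adjusted p = 0.00103), SPDEF 5.65-fold (log2 -2.56, SE 0.49, adjusted p = 0.00107) and MUC16 2.48-fold (log2 -0.64, SE 0.23, adjusted p = 0.038). MUC16 was lost without either A549 library or the first H2023 library (adjusted p up to 0.363), at a pseudocount of 0.1 (0.0759) and in a fit of the 4 libraries (0.124). AGR2 (-0.22, adjusted p = 0.609) and MUC1 (0.63, adjusted p = 0.172) overlapped between the lines in oncosphere culture, and MUC1 passed as higher without the first H2023 library (1.26, adjusted p = 0.00971).

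Other genes of the same system were followed as lists, with the 7 members left out. These lists too were chosen with earlier results of these data known. Among lineage transcription factors, which include the forkhead factors FOXA1 to FOXA3 and the ETS factors ELF3 and EHF, 11 of 13 were measured. In A549, 7 of 11 fell in the libraries labelled knockout in normal culture and 8 of 11 in oncosphere culture, with none higher, and their median log2 fold change was -1.10 and -1.42, where 17.7% and 20.7% of all genes passed and the medians of all genes were -0.03 and 0.03. HNF4A, a hepatic and intestinal nuclear receptor, was at 9.99 and 15.5 TPM in wild-type and 0.39 and 2.05 TPM in knockout cells in normal culture (log2 -2.71, adjusted p = 0.00174) and at 22.7 and 28.1 against 1.25 and 1.47 TPM in oncosphere culture (log2 -3.48, adjusted p = 1.97e-04). FOXA3, which drives mucus genes in airway epithelium, went from 3.15 and 3.49 to 0.29 and 0.34 TPM and from 14.0 and 9.35 to 1.21 and 1.14 TPM (log2 -1.72 and -2.52). ELF3 in normal culture (log2 -2.58) and CREB3L1 (-2.87) and FOXA2 (-1.65) in oncosphere culture fell too, and SOX2 fell by 1.69 on the log2 scale in normal culture. In H2023 1 of 11 fell in each culture, XBP1 in normal culture (log2 -0.91, adjusted p = 0.0204) and SOX2 in oncosphere culture (log2 -1.41, adjusted p = 0.0235), where 3.0% and 5.56% of all genes passed.

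With oncosphere culture 6 of 11 of these factors rose in A549 wild type, 5 in A549 knockout, 4 in H2023 wild type and 3 in H2023 knockout, with none lower. Of all genes 41.5%, 22.4%, 27.4% and 32.5% passed in either direction in these comparisons. Those that rose numbered 3479, 2081, 943 and 1779 of 18227 genes. After centring on the median fold change, 1762 genes in H2023 wild type and 2537 in H2023 knockout were higher. EHF rose in all 4 settings, from 1.61 to 4.96 TPM in normal culture over both wild types to 20.25 to 49.4 TPM in oncosphere culture (log2 3.59 in A549 and 2.66 in H2023), and at log2 3.67 and 3.85 in the respective knockout libraries. XBP1, the unfolded protein response factor that secretory cells need, rose in all 4 as well (log2 1.89, 1.71, 1.08 and 2.39 in the same order of A549 wild type and knockout, then H2023).

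Among mucin-type O-glycosylation enzymes, which attach and extend the sugar chains of mucins, 18 of 20 were measured. In A549, 6 fell and none rose in the libraries labelled knockout in normal culture, and 8 fell and 5 rose in oncosphere culture, beside 17.7% and 20.7% of all genes that passed in either direction. ST3GAL1, a sialyltransferase, fell in both (24.45 and 26.1 to 4.02 and 4.65 TPM, log2 -2.30, adjusted p = 5.82e-06, and 55.2 and 41.7 to 16.8 and 13.25 TPM, log2 -1.62, adjusted p = 2.59e-05). B3GNT3 fell in normal culture (log2 -2.70), and GALNT5 (-2.07) and ST6GALNAC1 (-1.90), both under 5 TPM, fell in oncosphere culture. Other enzymes had higher levels in the A549 oncosphere knockout libraries, without overlap. C1GALT1C1 went from 43.1 and 47.2 to 83.0 and 89.6 TPM and GALNT1 from 57.1 and 61.9 to 84.8 and 87.6 TPM. GALNT6 went from 1.56 and 2.22 to 7.69 and 6.93 TPM. The list's medians were -0.22 and -0.19 in A549 and 0.09 and 0.15 in H2023, in normal and oncosphere culture. In H2023 none of 18 passed in normal culture and 2 rose in oncosphere culture, ST3GAL1 (log2 0.65, adjusted p = 0.0362) and GALNT1 (log2 0.40, adjusted p = 0.0413). Of all genes only 3.0% and 5.56% passed in either direction in these 2 comparisons. With oncosphere culture 8 of 18 rose and 2 fell in A549 wild type, and 6 rose and 1 fell in A549 knockout. In H2023, 1 rose and 3 fell in wild type, and 3 rose and 3 fell in knockout. Beside them 41.5%, 22.4%, 27.4% and 32.5% of all genes passed in either direction.

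Of the secretory machinery, which holds proteins of mucin folding, granule release and co-secretion, 9 of 13 were measured, and those that passed for the knockout label did so in both directions in each of the 4 settings. In A549 oncosphere culture FCGBP, a mucus-bound protein, went from 183 and 236 TPM in wild type to 17.7 and 7.92 TPM (log2 -4.02, adjusted p = 2.36e-04) and ZG16B from 8.83 and 5.37 to 0.87 and 0.50 TPM (log2 -2.24). RAB27A, a small GTPase of granule release, was higher in both A549 cultures (log2 1.18 and 1.27) and lower in both H2023 cultures (-0.47 and -0.58) in the libraries labelled knockout. ZG16B rose in H2023 knockout in both cultures (log2 1.86 and 2.61), the opposite of its change in A549. With oncosphere culture 6 of 9 rose in A549 wild type, 3 in A549 knockout, 3 in H2023 wild type and 5 in H2023 knockout, with none lower. Of all genes 41.5%, 22.4%, 27.4% and 32.5% passed in either direction, and the numbers that rose are given above. FCGBP rose in each (log2 6.18, 3.33, 2.81 and 3.33).

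The other mucins and trefoil factors were mostly low. Among membrane mucins 5 of 9 were measured, and MUC13 was the 1 that fell in the libraries labelled knockout, in A549 oncosphere culture (61.6 and 52.4 to 2.70 and 7.47 TPM, log2 -3.37, adjusted p = 7.11e-05). MUC13 rose with oncosphere culture in A549 wild type (log2 3.46) and in H2023 wild type (1.41) and knockout (1.34). MUC20 rose in A549 knockout (log2 1.26). In H2023, MUC3A rose in wild type (log2 0.97) and knockout (1.36), and MUC12 in knockout (1.18). All 3 other gel-forming mucins stayed at 1.43 TPM or less. MUC2 (log2 -0.57, adjusted p = 0.0218) and MUC19 (-0.75, adjusted p = 0.0413) passed as lower in A549 oncosphere knockout, the latter from wild-type libraries of 1.43 and 0.17 TPM. Both passed as higher with oncosphere culture in A549 wild type (log2 0.79 and 0.75). TFF3, the 1 trefoil factor measured of 2, was at 3.40 and 3.65 TPM in A549 oncosphere wild type and at 0.29 and 0 TPM in knockout (log2 -1.99, adjusted p = 4.71e-05). TFF3 rose with oncosphere culture in A549 wild type (log2 1.96) and in H2023 wild type (1.56) and knockout (1.51), and was at 3.65 TPM or less throughout.

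**Figure D4:**
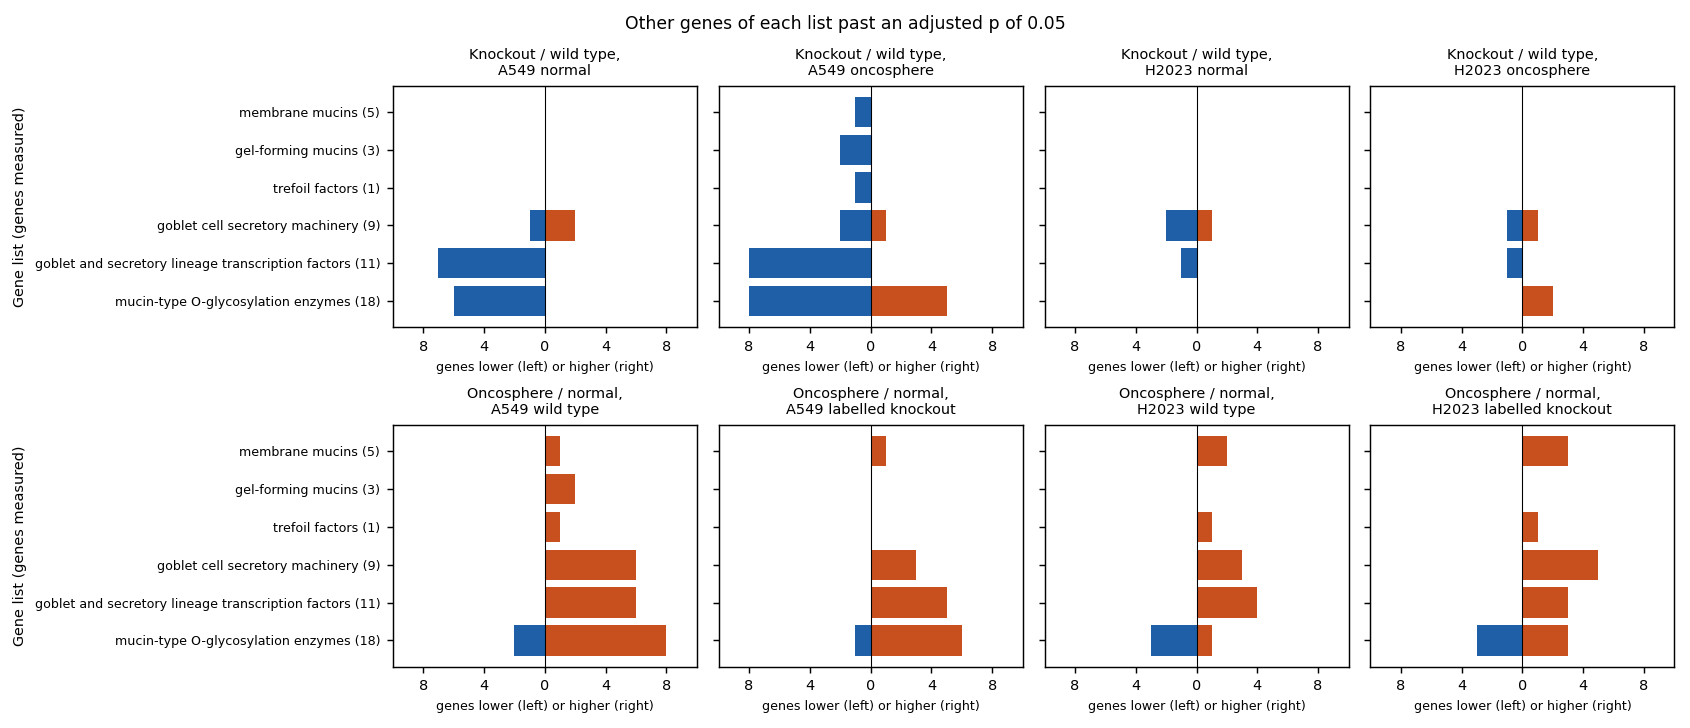
Number of genes of each list that passed an adjusted p of 0.05 as higher (right) or lower (left), for libraries labelled knockout against wild type (top) and oncosphere against normal culture (bottom), with the number of genes measured beside each list name. Lineage transcription factors were lower for 7 and 8 of 11 genes in the A549 knockout libraries, and no factor was lower in oncosphere culture in any of the 4 settings.

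Markers of other airway cells were read beside these results. Of 10 club and airway secretory markers 4 were measured (BPIFB1, LCN2, PIGR and SLPI), and in A549 their summed level was 129 to 248 TPM in normal wild type, 2.81 to 3.69 in normal knockout, 1317 to 1553 in oncosphere wild type and 140 to 269 in oncosphere knockout. In H2023 the sum was 228 to 385 TPM in normal wild type and 104 to 128 in normal knockout, but 670 to 712 in oncosphere wild type and 1830 to 3254 in oncosphere knockout. LCN2 and SLPI made up most of it. In H2023 oncosphere culture the higher knockout sum lay mostly in LCN2, at 1281 and 2849 TPM in knockout against 183 and 240 in wild type. SLPI overlapped there (544 and 396 against 513 and 404 TPM). PIGR was higher in knockout (1.23 and 1.75 against 0.53 and 0.44 TPM) and BPIFB1 lower (3.40 and 7.03 against 15.6 and 25.9 TPM). BPIFB1 was at 0 in both A549 normal groups and in H2023 normal knockout, and PIGR was at 0 in A549 normal knockout. Of the epithelial markers EPCAM was low in A549 (0.37 to 1.98 TPM in normal culture) and KRT19 was at 0.29 and 0.67 TPM in A549 normal knockout against 6.11 and 8.33 TPM in wild type. In A549 oncosphere culture EPCAM was at 9.40 and 7.94 TPM in wild type and 0.82 and 1.03 TPM in knockout. KRT19 was at 46.8 and 101 TPM and at 3.29 and 5.92 TPM. EPCAM and KRT19 were thus highest within A549 in the group where 5 of the 7 genes peaked. CDH1 went the other way there, at 73.1 and 62.4 TPM in wild type and 84.5 and 79.0 TPM in knockout. In A549 normal culture CDH1 was at 34.7 and 52.1 TPM in wild type and 20.6 and 17.7 TPM in knockout. KRT7, KRT8 and KRT18 were at 630.2 TPM or more in every library of either line. In A549 normal culture KRT8 was at 3626 and 3569 TPM in wild type and 1259 and 765 TPM in knockout. KRT18 was at 3749 and 3995 TPM against 1242 and 666 TPM there, and KRT7 overlapped. In A549 oncosphere wild type KRT8 was at 2617 and 3188 TPM, KRT18 at 2484 and 3210 TPM and KRT7 at 1436 and 974 TPM. Unlike EPCAM and KRT19, none of these keratins was highest within A549 in that group. The alveolar type 2 list (3 of 9 measured) summed to 9.32 to 59.4 TPM, with LAMP3 at 3.21 TPM or less, and the basal list (2 of 5) to 0.06 to 7.27 TPM. The ciliated list (5 of 8) lay at 3.60 to 16.9 TPM in A549 and in H2023 normal culture and at 49.3 to 264 TPM in H2023 oncosphere culture, with TPPP3 at 34.0 to 240.1 TPM. The fibroblast list (2 of 5) summed to 1.37 to 8.61 TPM, and the leukocyte list (2 of 5) to 28.7 to 197 TPM, with its highest value in A549 oncosphere wild type. There CD68 was at 179 and 117 TPM against 44.5 and 29.7 TPM in knockout, and LYZ at 18.6 and 6.81 TPM against 0.28 and 0 TPM, with LYZ at 3.85 TPM or less in all other libraries. Mitochondrially encoded genes took 10.3% to 18.7% of TPM in normal and 19.5% to 25.6% in oncosphere culture. The part of these markers and of the mitochondrial share in the members' differences was not tested.

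Genes whose log2(TPM + 1) pattern over the 16 libraries was most like each member, among 16379 genes reaching 1 TPM in at least 2 libraries, are given as a description, since the libraries share lines, clones and cultures. AGR2 was most like SLPI (Pearson r 0.983), RDH10 (0.974) and SEC61B (0.956). For SPDEF they were a gene without a symbol (ENSG00000287037, 0.982), HLA-DMB (0.967) and DMTN (0.957), and for TFF1 CAPN8 (0.976), CCL24 (0.964) and MYO7B (0.962). MUC5B paired with FGL1, PDGFRL and PTGS2 (0.956 to 0.955), and MUC5AC with HAO1 (0.942), C4BPB (0.938) and ACY3 (0.937). The membrane mucins had the lowest values, MUC1 with TENT5A (0.916), LDHD (0.915) and FRRS1 (0.909) and MUC16 with PTPRH (0.914). None of the 3 nearest genes of any member was another member.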

How the data were processed

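Each of the 4 deposited tables, one for each line and culture, gives TPM for 2 wild-type and 2 knockout-labelled libraries, and the authors' comparison: a mean normalized count (a signal over the 4 libraries), a log2 fold change, its error, a statistic (a score) and p-values, per the file headers. HISAT2, StringTie and GRCh38 are named per the submitters' processing notes, without roles. The annotation, filters and use of strand in counting are not given in the sources used here. The deposited statistic had the opposite sign to the deposited fold change in all 18227 genes, and was not used. Each table had 18361 rows, of which 119 identifiers stood on several identical rows and were counted once. The deposited tables gave symbols for 15590 genes, a reference table of gene names gave 867 more, and 1770 had none.

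From the deposited TPM, log2(TPM + 1) was fitted with limma 3.58.1 in R 4.3.3 over all 16 libraries and 8 groups, with Benjamini-Hochberg adjustment over all genes and a threshold of 0.05. The code was tested on simulated data. TPM gives no depth of a single library, so no counting error is given. The 7 genes and all lists were chosen with earlier results of these data known. From each list, up to 4 genes past the threshold with the largest change were picked per comparison. Not all of these are named in the text, and others are named with their values as described. Alternatives were a pseudocount of 0.1, at least 1 TPM in at least 2 libraries, fits of only the libraries compared, the replicate number as a block, centring on the median fold change, leaving out each library, the authors' deposited p-values and, added after seeing the data, leaving out 15 mitochondrially encoded genes. The labels give no shared batch or day for a replicate number. Deviations of equally numbered libraries from their group means correlated at 0.07, 0.11, 0.03 and 0.44 between genotypes, at 0.12, 0.10, 0.15 and 0.13 between cultures and at 0.04 and -0.02 between lines. The highest, 0.44, was between genotypes in H2023 oncosphere culture. Values with the replicate number as a block are given for the results whose call it changed.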

Additional observations from a re-analysis of the deposited data

Results flagged for a closer look

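The size of the knockout difference depended on culture or line for several genes, each by a test of the difference itself (limma, adjusted p under 0.05). In A549, oncosphere minus normal culture gave -5.91 for TFF1, -3.73 for MUC5AC and -1.93 for MUC1 on the log2(TPM + 1) scale. MUC1 was the 1 of these whose fold change had opposite signs in the cultures, at 0.83 and -1.10. Of those 2 fold changes the first did not pass (adjusted p = 0.137) and the second was near the threshold (0.0492). As given above, the MUC5AC and MUC1 differences did not hold when certain single libraries were left out. TFF1 was at 1.10 TPM or less in every A549 normal library, so little of a fall could show there.

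For H2023 minus A549 in normal culture the difference was 2.90 for AGR2 and 3.76 for SPDEF. In oncosphere culture it was 6.49 for TFF1, 4.68 for SPDEF, 3.73 for MUC5AC, 2.55 for AGR2, 2.15 for MUC5B and 1.74 for MUC16. MUC16 was lower with the knockout label in A549 (-0.86) and higher in H2023 (0.88), and its TPM stayed under 2 in all 16 libraries. TFF1 lay at 1.39 to 3.20 TPM in all H2023 libraries, so little of a fall could show in that line.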

How the results depend on the processing

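Over 1146 values of the 7 genes under the alternatives, 999 kept direction and side of the threshold, 43 stayed short of the threshold with the other sign, 78 lost a call, 26 gained one and 0 called values changed sign. Of 7 genes, the number past the threshold for the knockout label in A549 normal culture was 5 in the authors' deposited table in place of 3. In A549 oncosphere culture it was 4 to 5 in place of 7 with 1 library left out. In H2023 normal culture, in place of 1, it was 0 in a fit of the 4 libraries, 4 in the authors' deposited table and 0 to 1 with 1 library left out. In H2023 oncosphere culture the 1 gene became 0 at a pseudocount of 0.1, with the filter of at least 1 TPM, in a fit of the 4 libraries and after centring, and 0 to 1 with 1 library left out. For culture, H2023 wild type gave 1 to 4 in place of 3 with 1 library left out, and H2023 knockout gave 3 in a fit of 8 libraries and 2 to 3 with 1 left out, in place of 5. The A549 difference between cultures gave 1 to 2 in place of 3 with 1 left out, and that of H2023 gave 1 in place of 0 from the authors' deposited fold changes. The cause of these changes was not tested.

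With 1 library left out, the remaining ranges were 3 to 3 for the knockout label in A549 normal culture, 7 to 7 and 2 to 3 for culture in A549 wild type and knockout, 4 to 6 and 4 to 5 between lines in normal and oncosphere culture, and 2 to 2 and 4 to 6 for the difference between lines.

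Over all genes, fits of only the 4 libraries compared passed 1971 (A549 normal), 2413 (A549 oncosphere), 0 (H2023 normal, with 3314 at an unadjusted p under 0.05) and 0 (H2023 oncosphere, with 2828) genes in place of 3233, 3780, 546 and 1014. For H2023 normal culture the authors' deposited table passed 1665. The difference between lines in oncosphere culture passed 1795 in a fit of 8 libraries in place of 2966. The difference between cultures in H2023, 1 gene, became 0 in a fit of 8 libraries, 7 with the replicate block and 71 from the authors' deposited fold changes.

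With the replicate block, 4, 7, 1 and 1 of 7 genes passed for the knockout label in A549 normal, A549 oncosphere, H2023 normal and H2023 oncosphere culture. Beside them 3768, 4321, 684 and 1289 of all 18227 genes passed. For culture 7, 4, 4 and 5 of 7 passed in A549 wild type and knockout and H2023 wild type and knockout, beside 7836, 4198, 5140 and 6052 of all genes. MUC1 gained a call in A549 normal (adjusted p = 0.0336) and H2023 oncosphere culture (0.0186), MUC5AC gained one for culture in A549 knockout (0.0052) and H2023 wild type (0.0173), and MUC16 lost one in H2023 oncosphere culture (0.071).

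Groups of 2 libraries limit every test, and the depth of single libraries is unknown.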
